A study of Rattus norvegicus with 6 samples.

Results

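Fos, Jun, Egr1 and Arc are immediate early genes, and they were chosen by name as 4 of the 26405 genes in a count table of cultured rat neural cells. Their rows are ENSRNOG00000008015 (Fos), ENSRNOG00000026293 (Jun), ENSRNOG00000019422 (Egr1) and ENSRNOG00000043465 (Arc), and all 4 were among the 18206 genes that passed the filter on low counts. The study sequenced mRNA from rat astrocytes, neurons and OPCs (oligodendrocyte precursor cells, from which the myelin-forming cells of the brain arise), with 2 libraries of each. Astrocytes and OPCs were passaged 1 time, 8 days into culture, and kept for 6 days more, while neurons had 0 passages and 7 days in culture. Each cell type was its own Life Technologies product, so a difference between cell types cannot be told apart from a difference between products, and for neurons also from passage and time in culture. The labels name no stimulus. The sources used here do not give strain, age or culture medium. Nothing in the labels says that the 2 libraries of a cell type came from separate cultures, so the p-values rest on the spread between these libraries alone, which may be technical.

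Immediate early genes are transcribed within minutes of a signal without new protein synthesis, and their mRNAs are short-lived. Fos and Jun encode leucine zipper proteins that pair to form the transcription factor AP-1. Jun can also pair with itself, while Fos cannot. Egr1 encodes a zinc finger transcription factor, and Arc encodes a cytoskeleton-associated protein that acts at synapses and promotes removal of AMPA receptors from the surface. Serum and growth factors are well-known inducers of Fos, Jun and Egr1, and synaptic activity is a well-known inducer of Arc in neurons. The transcription factors CREB, which binds cyclic AMP response elements (CREs), and SRF, which binds serum response elements, are known regulators upstream of this class of genes.

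The promoter of Egr1 is shown because Egr1 was the 1 member of 4 matched by symbol in the RefSeq promoter table used here (assembly GRCr8). Fos, Jun and Arc were not matched. The window lies at chr18:26736828-26737127 on the plus strand of GRCr8, from 250 bases before to 50 bases after the start of the gene. The build behind the count table is not given, so this position belongs to the RefSeq table and not to the counts. Capitals mark matches to the serum response element and to the CRE core TGACG, which reads CGTCA on the plus strand here.

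Egr1 promoter: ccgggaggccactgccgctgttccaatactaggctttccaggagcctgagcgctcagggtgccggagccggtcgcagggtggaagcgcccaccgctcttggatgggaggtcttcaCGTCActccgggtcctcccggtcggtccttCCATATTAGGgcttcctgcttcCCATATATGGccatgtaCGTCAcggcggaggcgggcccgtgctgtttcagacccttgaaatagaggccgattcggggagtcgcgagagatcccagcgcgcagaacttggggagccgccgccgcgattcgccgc

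Serum response elements were matched at bases 105 to 96 and 83 to 74 before the start, and CRE cores at bases 135 to 131 and 66 to 62 before it. Among the 33469 promoters of this length in the table, 1.64% held a serum response element and 0.0209%, 7 promoters, held at least 2 of them. The CRE core was more common, in 21.2% of promoters, with at least 2 in 4.96%, where a palindromic CRE counts as 2. The other motifs searched on both strands had no match in this window. They were the palindromic CRE TGACGTCA (which contains the CRE core, 1.83% of promoters), the AP-1 site TGANTCA (7.33%), the TATA box TATAAA (14.2%) and the EGR site GCGNGGGCG (4.98%). A match describes letters and not a bound site, and the counts do not measure binding.

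Total counts ranged from 22265917 in OPC replicate 1 to 102861667 in astrocyte replicate 1. Levels are given as CPM, counts per 1000000 of a library size corrected by TMM factors. The smallest count of any member was 29, for Arc in OPC replicate 1, where counting error alone gave a 95% Poisson interval of 0.747 to 1.60 CPM around 1.12 CPM. Such intervals cover counting error only, and for the other members they were far narrower than the gap between replicates. Gene lengths in the authors' annotation are not known here, so levels are compared between libraries for each gene and not between genes. Cell type markers and further immediate early genes listed by symbol could not be looked up, because the count table gives Ensembl identifiers and the gene table pairs none of them with a symbol. The labelled cell types were therefore not checked against markers.

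Fos was highest in astrocytes, and the ranges of the 3 cell types did not overlap. It stood at 1157 and 402 CPM in astrocyte replicates 1 and 2, at 80.1 and 13.6 CPM in neurons, and at 6.54 and 11.9 CPM in OPCs. Thus the lower neuron library lay just above the higher OPC library, and each astrocyte library lay well above all the others. The group means were 780 ± 534, 46.8 ± 47.0 and 9.23 ± 3.81 CPM (SD, n = 2 each). In bulk libraries such as these, fewer cells that express a gene and less RNA per cell cannot be told apart.

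Jun, the AP-1 partner of Fos, was likewise highest in astrocytes but nearly level between the other cell types. Its levels were 331 and 175 CPM in astrocytes, 34.5 and 20.1 CPM in neurons, and 21.3 and 33.0 CPM in OPCs. Neuron and OPC libraries covered the same range. The means were 253 ± 110, 27.3 ± 10.2 and 27.2 ± 8.28 CPM (SD, n = 2 each).

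Egr1 was highest in astrocytes, followed by OPCs and neurons in the order of the means. It stood at 1189 and 537 CPM in astrocytes, at 52.5 and 156 CPM in OPCs, and at 83.9 and 4.67 CPM in neurons. Neuron replicate 1 fell between the OPC libraries, while neuron replicate 2 was the lowest of all 6. The means were 863 ± 461, 104 ± 73.0 and 44.3 ± 56.0 CPM (SD, n = 2 each), so in neurons the SD exceeded the mean.

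Arc, known for its induction in active neurons, was low in every library and did not stand out in neurons. It was at 4.90 and 5.67 CPM in astrocytes, at 7.34 and 1.57 CPM in neurons, and at 1.12 and 2.92 CPM in OPCs. The neuron libraries were the highest and the second lowest of the 6, on either side of both astrocyte libraries. The means were 5.28 ± 0.54, 4.46 ± 4.07 and 2.02 ± 1.28 CPM (SD, n = 2 each).

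**Figure D1:**
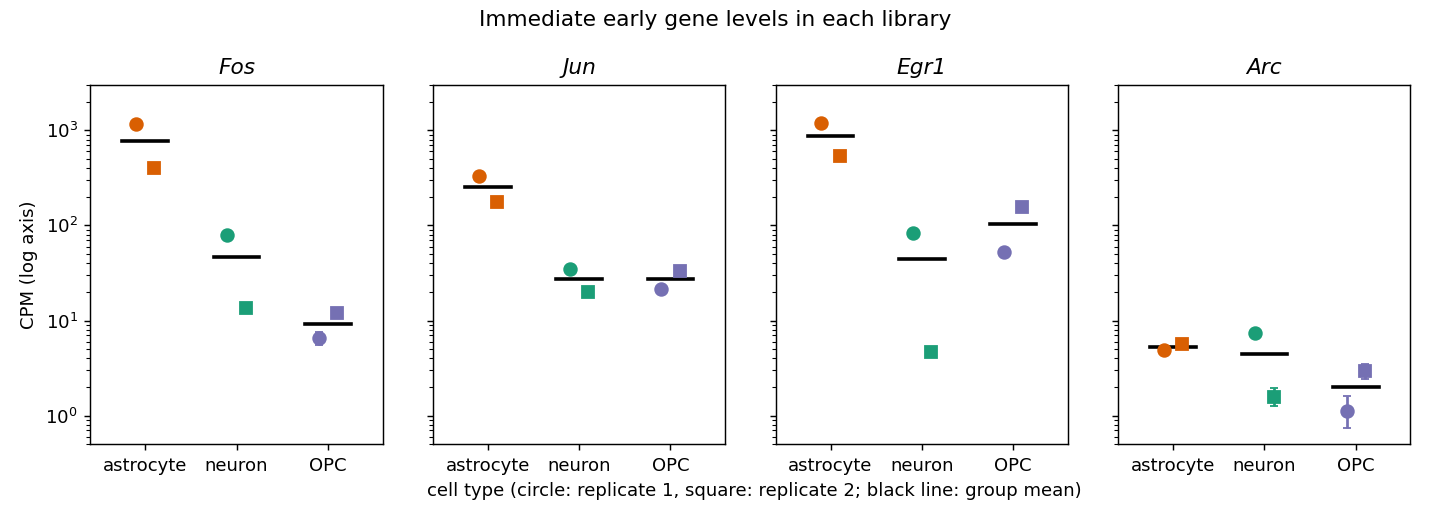
CPM on a log axis (vertical) of Fos, Jun, Egr1 and Arc in astrocyte, neuron and OPC libraries (horizontal), with circles for replicate 1, squares for replicate 2, black lines for the mean of 2 libraries and bars for the 95% Poisson interval of counting error. Both astrocyte libraries lie above every other library for Fos, Jun and Egr1, and the neuron replicates of Egr1 lie far apart, at 83.9 and 4.67 CPM.

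Neurons were compared with astrocytes to ask which of these genes differ between the signalling cells and their support cells. Fos, Jun and Egr1 were lower in neurons, and Arc did not pass the test. The 3 of 4 members called lower stand beside a background of 15.9% of all 18206 genes called lower (30.4% called in either direction). The log2 fold change was -4.06 ± 0.96 for Fos (SE, 16.6-fold lower; edgeR adjusted p = 0.0188). For Jun it was -3.21 ± 0.50 (9.28-fold lower; edgeR adjusted p = 0.00357), with a smaller fold but a tighter spread than Fos. For Egr1 it was -4.28 ± 1.31 (19.5-fold lower; edgeR adjusted p = 0.0458), the widest error of the 3. For Arc it was -0.24, with a 95% interval from -2.09 to 1.61 (edgeR adjusted p = 0.844), and its sign turned with total-count scaling (0.29). The median over the 4 members was -3.64, against -0.06 over all genes tested. The neuron libraries of Fos, Jun and Egr1 did not overlap the astrocyte libraries, as was so in the same direction for 36.8% of all genes.

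Of these calls only that of Jun held in each of 13 alternative settings, with an adjusted p between 2.38e-08 and 0.0134. The Fos call was lost without astrocyte replicate 1 (log2 fold change -3.01, edgeR adjusted p = 0.0895) and with no low-count filter (-4.08, 0.0629), and its fold change was -5.85 without neuron replicate 1. The Egr1 call held in 4 of the 13 settings, with an adjusted p from 0.000381 with DESeq2 to 0.2 with no low-count filter. Leaving out neuron replicate 1 took its fold change to -7.53 (edgeR adjusted p = 0.00324), and leaving out neuron replicate 2 took it to -3.36 (0.0339). It was -3.50 without astrocyte replicate 1 (edgeR adjusted p = 0.165) and -4.73 without astrocyte replicate 2 (0.0916), and the call was also lost without OPC replicate 1 (0.064) or 2 (0.0643).

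The next comparison asked the same of OPCs and astrocytes, which shared their passage and days in culture. It uses the same astrocyte libraries as the comparison above. Fos and Jun were lower in OPCs, 2 of 4 members beside 14.9% of all genes called lower (25.5% in either direction). Fos had the largest difference of any member in any comparison, a log2 fold change of -6.40 ± 1.08 (SE, 84.2-fold lower; edgeR adjusted p = 0.00605). Only 2.94% of the genes tested had a fold change that low or lower in OPCs. Jun differed by -3.22 ± 0.50 (9.31-fold lower; edgeR adjusted p = 0.0043), close to its value in neurons. Egr1 did not pass, at -3.05 ± 1.24 (95% interval -5.97 to -0.13; edgeR adjusted p = 0.122), and neither did Arc, at -1.38 ± 0.80 (interval -3.28 to 0.53; edgeR adjusted p = 0.273). All 4 members nevertheless had both OPC libraries below both astrocyte libraries, an ordering shared by 34.4% of all genes. The median of the members was -3.13, against -0.04 over all genes.

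The Fos call was lost without OPC replicate 1 (log2 fold change -6.03, edgeR adjusted p = 0.0572), and its fold change was -5.33 without astrocyte replicate 1, where it was still called (0.025). Jun was called in each of the 13 settings, at most at an adjusted p of 0.0403, with a fold change of -2.57 without astrocyte replicate 1. Egr1 was called in 4 settings, among them the fit of only these 4 libraries (-3.05, edgeR adjusted p = 0.0131) and the fits without neuron replicate 1 (0.0133) or 2 (0.0137), and it reached 0.402 without OPC replicate 1.

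**Figure D2:**
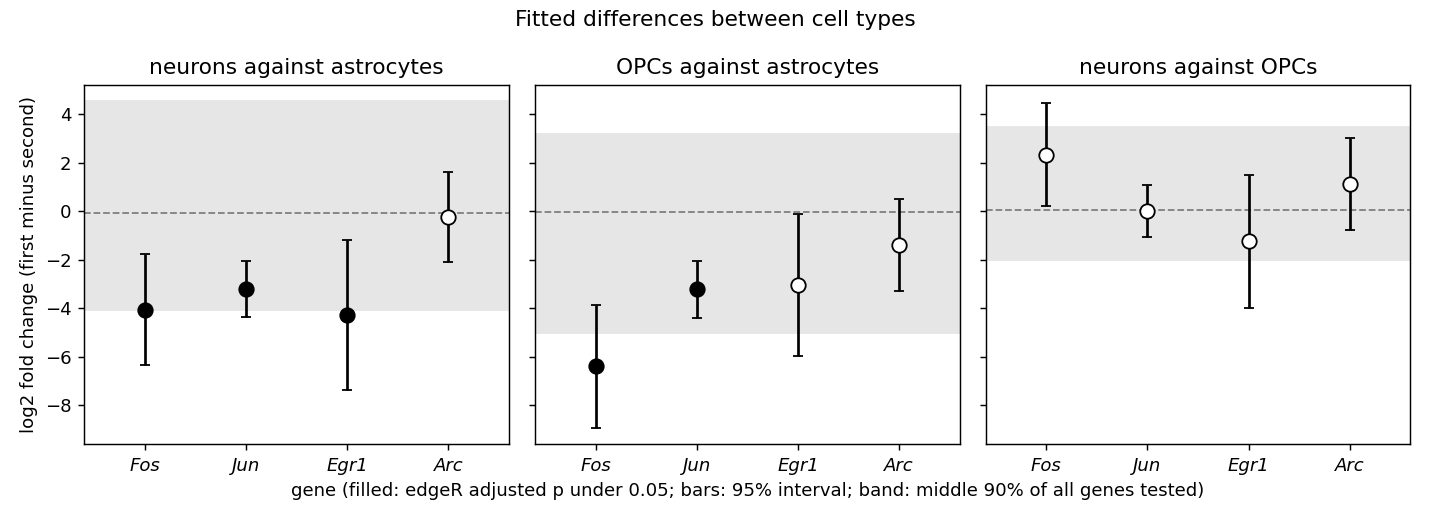
Log2 fold change (vertical, first cell type minus second) of each gene (horizontal) in the 3 comparisons, with 95% intervals, filled points for an edgeR adjusted p under 0.05, a grey band for the middle 90% of all genes tested and a dashed line for their median. Fos in OPCs against astrocytes reaches -6.40, below the band, while no member is filled between neurons and OPCs.

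Between neurons and OPCs 0 of 4 members were called by edgeR, where 12.4% of all genes were. At an unadjusted edgeR p under 0.05 there was 1 of 4, Fos, beside 28.6% of all genes, and DESeq2 called the same member beside 22.1% of all genes, so neither count stands apart from its background. Fos was at 2.34 ± 0.90 on the log2 scale (SE, 5.06-fold higher in neurons; 95% interval 0.22 to 4.46; edgeR adjusted p = 0.141). It was the 1 member with both neuron libraries above both OPC libraries, as in 29.7% of all genes. Its fold change was 3.11 without neuron replicate 2 (edgeR adjusted p = 0.0311), 0.55 without neuron replicate 1 (0.641), and 2.39 with DESeq2 (adjusted p = 0.026).

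Jun was nearly the same in neurons and OPCs, at 0.01 ± 0.46 (95% interval -1.07 to 1.08; edgeR adjusted p = 0.996), so a difference of over about 2-fold in either direction lies outside its interval. Its sign turned under several settings, among them the fit of only these 4 libraries (-0.01). Egr1 was at -1.23 ± 1.16 (interval -3.98 to 1.51; edgeR adjusted p = 0.535), and its value moved with which neuron or OPC library was left out. With neuron replicate 1 left out it was -4.48 (edgeR adjusted p = 0.0262), with neuron replicate 2 left out it was -0.31 (0.82), and without OPC replicate 2 it was -0.27 (0.955). Arc was at 1.13 ± 0.80 (interval -0.76 to 3.02; edgeR adjusted p = 0.397) and turned to -0.37 without neuron replicate 1 (0.761).

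**Figure D3:**
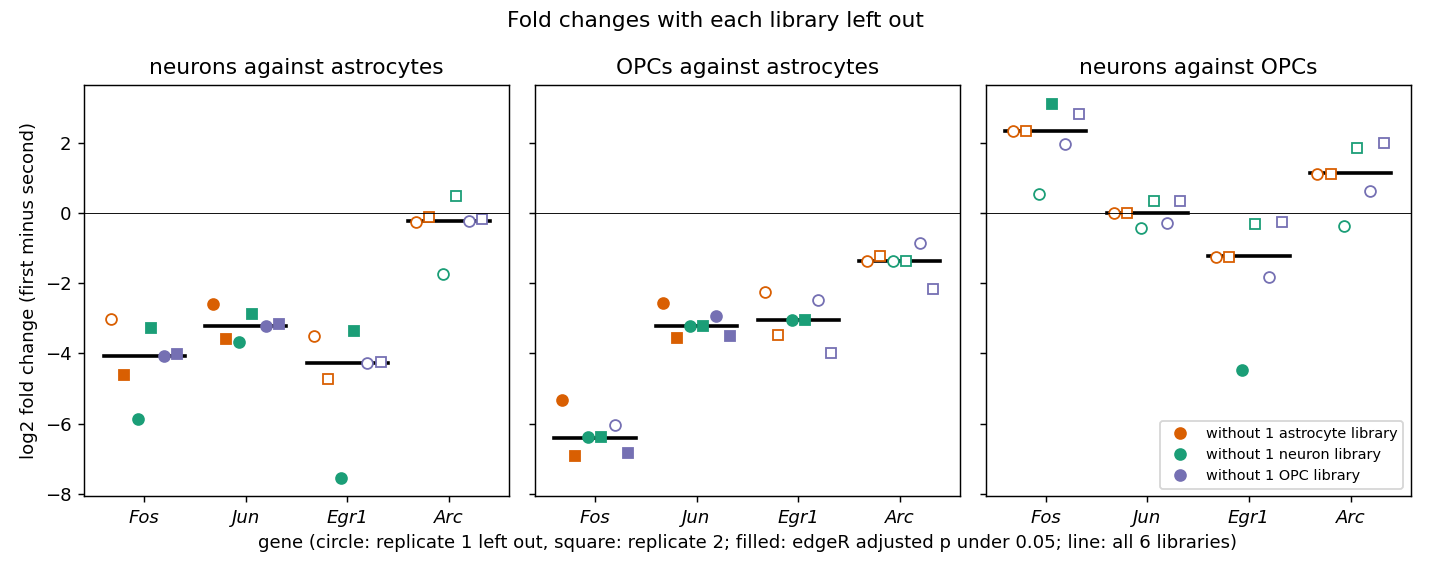
Log2 fold change (vertical, first cell type minus second) of each gene (horizontal) when 1 library is left out, coloured by the cell type of that library, with circles for replicate 1, squares for replicate 2, filled points for an edgeR adjusted p under 0.05 and black lines for the value with all 6 libraries. Leaving out neuron replicate 1 takes Egr1 to -7.53 against astrocytes and to -4.48 against OPCs.

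Replicates of a cell type differed widely for some of these genes. In neurons all 4 members were higher in replicate 1, by a log2 ratio of 4.16 for Egr1 (17.8-fold), 2.56 for Fos (5.89-fold), 2.20 for Arc (4.58-fold) and 0.78 for Jun (1.71-fold). These ratios used log2 CPM with a prior count of 2. The middle 90% of all genes tested had ratios from -1.30 to 2.31 in neurons, with a median of 0.045. The share of all genes higher in replicate 1 was not computed. Egr1 and Fos lay above that range, and Arc and Jun within it. A ratio as far from 0 as that of Egr1 was found in 0.857% of all genes, against 4.66% for Fos, 6.73% for Arc and 37.7% for Jun.

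In OPCs all 4 members were higher in replicate 2. The log2 ratio of replicate 1 to 2 was -1.57 for Egr1, -1.36 for Arc, -0.86 for Fos and -0.63 for Jun. The median over all genes was -0.004, with a middle 90% from -1.14 to 1.25. Egr1 and Arc lay below that range. Egr1 was thus the member with the widest gap between replicates in OPCs as in neurons.

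In astrocytes Fos (1.52), Egr1 (1.15) and Jun (0.92) were higher in replicate 1, and Arc (-0.21) was slightly higher in replicate 2. Fos alone lay outside the middle 90% of all genes, which ran from -1.24 to 1.19. Among genes with a mean of at least 10 CPM in astrocytes, ratios as far from 0 were rarer. They were found in 1.87% for Fos, 4.9% for Egr1 and 9.73% for Jun, against 5.57%, 11.2% and 17.7% of all genes. With 2 libraries a cell type, none of these ratios can be tested.

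Of the 12 ratios, 11 were on the side of the library with more counts, Arc in astrocytes being the exception. The ratios come from only 3 pairs of libraries, so they are not separate observations of depth. The share of all genes on that side was not computed. The part of depth in the ratios was not tested.

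**Figure D4:**
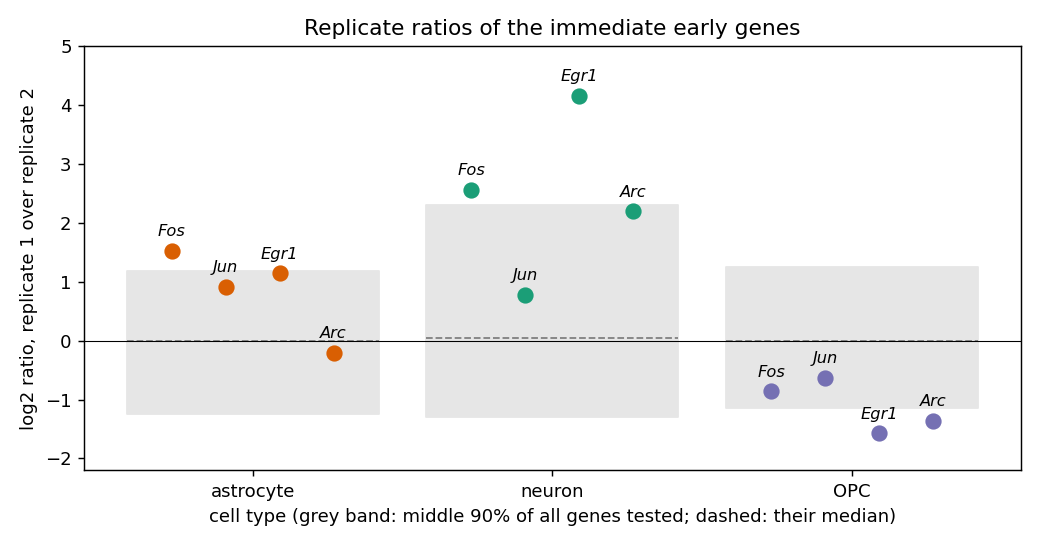
Log2 ratio of replicate 1 to replicate 2 (vertical) of each gene in each cell type (horizontal), with a grey band for the middle 90% of all genes tested and a dashed line for their median. All 4 genes lie above 0 in neurons and below 0 in OPCs, and Egr1 in neurons, at 4.16, lies farthest out.

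Ratios between members inside a library do not depend on how libraries are scaled. They are ratios of counts not corrected for length, so only their change between libraries can be read. Fos over Jun was 3.50 and 2.29 in astrocytes, 2.32 and 0.675 in neurons, and 0.307 and 0.361 in OPCs. OPC libraries had the lowest share of Fos relative to its partner, and the astrocyte and neuron ranges overlapped. On the log2 scale the mean was 1.50 ± 0.43 in astrocytes, 0.32 ± 1.26 in neurons and -1.59 ± 0.17 in OPCs (SD, n = 2 each).

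Fos over Egr1 set OPCs apart as well. The ratio was 0.973 and 0.750 in astrocytes, 0.955 and 2.90 in neurons, and 0.125 and 0.0766 in OPCs. OPCs therefore held far less Fos for each count of Egr1 than the other cell types did. In neuron replicate 2 the Egr1 counts were low relative to both other transcription factors, with Jun over Egr1 at 4.30 there and between 0.212 and 0.411 in the other 5 libraries.

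Relative to Arc, the transcription factors had their highest counts in astrocytes. Egr1 over Arc was 243 and 94.7 in astrocytes, 11.4 and 2.97 in neurons, and 47.1 and 53.3 in OPCs, with no overlap between cell types. Fos over Arc was 236 and 71.0 in astrocytes, 10.9 and 8.62 in neurons, and 5.86 and 4.08 in OPCs, also without overlap. The neuron and OPC values lay close, and Arc had only 91 counts in neuron replicate 2 and 29 in OPC replicate 1. Neither the counting error of these ratios nor the share of gene pairs with such an ordering was computed. Jun over Arc was 67.5 and 30.9 in astrocytes, 4.70 and 12.8 in neurons, and 19.1 and 11.3 in OPCs, where the neuron and OPC ranges overlapped. In these libraries counts of Arc were thus highest relative to Egr1 in neurons and, by a small gap from neurons, relative to Fos in OPCs. An exact permutation test of 2 against 2 libraries cannot give a two-sided p under 0.333, so no such test was made of the ratios.

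**Figure D5:**
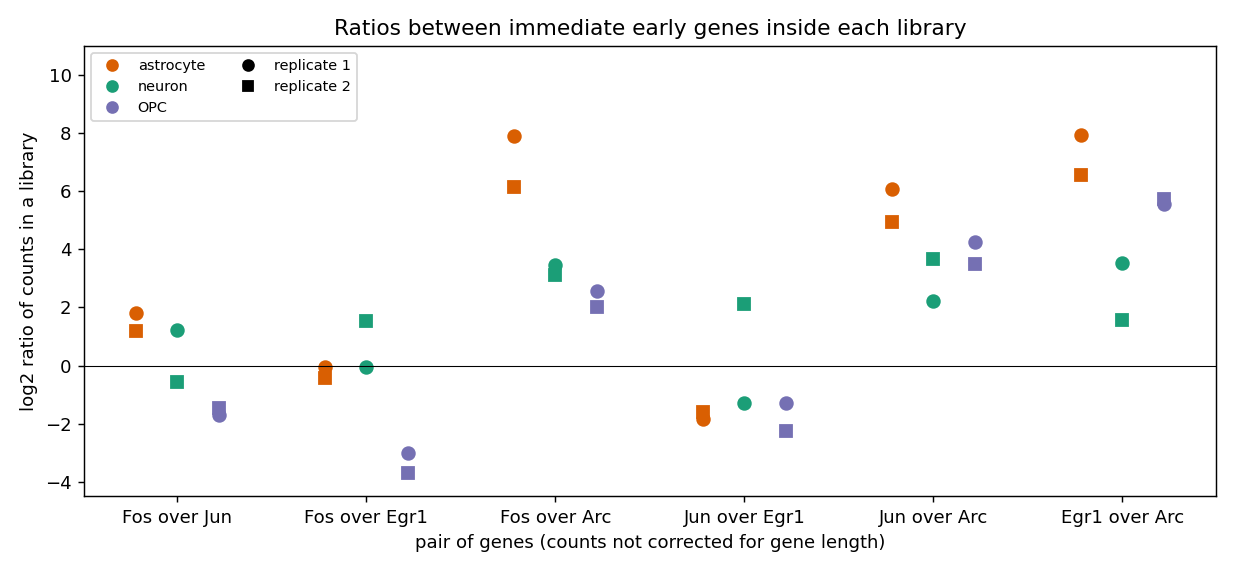
Log2 ratio of counts (vertical) for each of the 6 pairs of genes (horizontal) in each library, coloured by cell type, with circles for replicate 1 and squares for replicate 2. OPC libraries lie lowest for Fos over Jun and Fos over Egr1, and neuron replicate 2 stands alone for Jun over Egr1.

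Likeness of pattern was measured as the root mean square difference of log2 CPM over the 6 libraries, each gene centred on its own mean, so that 0 means the same pattern. Fos lay 1.38 from Jun, 1.82 from Egr1 and 2.11 from Arc. Among the 11080 genes with a mean of at least 10 CPM other than Fos, 307 (2.77%) had a pattern nearer to Fos than that of Jun, while 25.2% of genes were nearer to Jun than Fos was. Seen from Egr1, 3.20% of genes were nearer than Jun and 7.49% nearer than Fos. Seen from Arc, 89.5% were nearer than Fos, 89.1% nearer than Egr1 and 55.6% nearer than Jun. This measure counts the size of a change as well as its direction, and Arc changed least of the members. Correlation over the 6 libraries leaves size out. It was 0.950 for Fos with Jun, 0.867 for Jun with Egr1 and 0.770 for Fos with Egr1. With Arc it was 0.774 for Fos, 0.642 for Egr1 and 0.632 for Jun. The share of all genes with correlations as high was not computed. In root mean square difference, Egr1 lay 1.44 from Jun and 2.07 from Arc, and Jun lay 1.20 from Arc. The members were thus not each other's nearest genes by that difference. The nearest to Fos was ENSRNOG00000013737, at 0.388, and the nearest to Jun was ENSRNOG00000007284, at 0.218, both highest in the astrocyte libraries. The nearest gene lay 0.629 from Egr1 and 0.272 from Arc. The files do not pair these identifiers with names. Over all 6 libraries Egr1 spanned 255-fold in CPM, Fos 177-fold, Jun 16.5-fold and Arc 6.58-fold. A standard deviation of log2 CPM as large as theirs was found in 5.14% of all genes for Fos, 6.69% for Egr1, 19.8% for Jun and 35.0% for Arc.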

How the data were processed

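The authors deposited raw counts per gene for 6 libraries of cultured rat cells. RNA was purified on columns and 250 ng were sequenced on an Illumina HiSeq instrument, per the labels' protocols. The sources used here do not name the aligner, the counter, the genome build, the annotation or the use of strand, so reads of genes that overlap may be shared. Each column was tied to its sample by the description label, 0 columns were left out, and no 2 libraries were identical. None of the members shared its counts with another gene.

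Tests used edgeR 4.0.16 (R 4.3.3): filterByExpr by cell type (minimum count 10, minimum total 15), TMM factors from 0.794 to 1.21, and a robust quasi-likelihood fit of all 6 libraries with 3 residual degrees of freedom. P-values were adjusted by Benjamini-Hochberg over all 18206 genes, with a threshold of 0.05. SEs and 95% intervals were derived from the F statistics, with 7.03 total degrees of freedom for each member, since the fit shares the spread across genes. The steps were tested on simulated data. The alternatives were RLE and total-count scaling, DESeq2 1.42.0, no filter, fits of 4 libraries, a replicate block, omission of each library and, chosen after seeing the data, random thinning to the smallest total, which leaves expected ratios as they are and adds counting noise only. The text names the 4 members and, by rule, the gene nearest in pattern to each, here printed for 2 of them. Members and lists were chosen with earlier results of these data known. The symbol lists and the marker check could not be run.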

Additional observations from a re-analysis of the deposited data

How the results depend on the processing

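With total-count scaling, all genes together had a median log2 fold change of 0.40 in place of -0.06 for neurons against astrocytes and 0.39 in place of -0.04 for OPCs against astrocytes. For the members, 72 of 84 values under other settings and 56 of 72 values with 1 library left out kept their direction and their side of the threshold. The cause of the changes below was not tested.

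For neurons against astrocytes, Egr1 was no longer called with RLE scaling (-4.19, edgeR adjusted p = 0.0507), total-count scaling (-3.71, 0.0631), no low-count filter (-4.29, 0.2) or the fit of 4 libraries (-4.25, 0.0644). Fos was no longer called with no filter (-4.08, 0.0629), and Arc turned to 0.29 with total-count scaling. For OPCs against astrocytes, Egr1 was called by DESeq2 (-3.01, adjusted p = 0.0167) and in the fit of 4 libraries (-3.05, 0.0131). For neurons against OPCs, DESeq2 called 4031 genes (2260 by edgeR) and Fos (2.39, adjusted p = 0.026), and Jun turned to -0.01 in the fit of 4 libraries.

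Same-numbered libraries deviated together weakly, with correlations of 0.147 to 0.292. With 2 numbers and no label for what they mark, they share only a number. With the replicate block, Egr1 was -4.68 for neurons against astrocytes (edgeR adjusted p = 0.0699) and Jun -0.08 for neurons against OPCs. The block changed no other call of a member, and 6467, 4831 and 2445 genes were called in place of 5532, 4649 and 2260.

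With 1 library left out, a cell type with a lone library is taken to vary as the others do. For neurons against astrocytes, 3306 to 5996 genes were called, and the fold change was -5.85 to -3.01 for Fos, -3.66 to -2.58 for Jun, -7.53 to -3.36 for Egr1 and -1.74 to 0.47 for Arc. For OPCs against astrocytes, 2182 to 5831 genes were called, and it was -6.93 to -5.33 for Fos, -3.57 to -2.57 for Jun, -3.98 to -2.25 for Egr1 and -2.16 to -0.85 for Arc. For neurons against OPCs, 116 to 2759 genes were called, and it was 0.55 to 3.11 for Fos, -0.44 to 0.34 for Jun, -4.48 to -0.27 for Egr1 and -0.37 to 1.98 for Arc. The fewest calls came without astrocyte replicate 1 in the first comparison and without OPC replicate 2 in the others. Of 24 replicate ratios under other scalings, 0 changed sign. Depth limits Arc most, with as few as 29 counts.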
